A study of Mus musculus with 6 samples.

Results

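The genes described here encode the main enzymes that remove superoxide and peroxides, make glutathione or break down heme. They are *Sod1*, *Sod2*, *Sod3*, *Cat*, *Gpx1*, *Gpx3*, *Hmox1*, *Txnrd1*, *Gclc* and *Gclm*. They were taken by gene symbol from the deposited read counts, and these 10 are 10 of the 54532 genes counted there. RNA was measured in lung tissue of 3 GR+/+ and 3 GRdim/dim mice (129/SvEv x C57BL/6, 10 to 16 weeks old), with 1 poly(A)-captured library per mouse. In GRdim/dim mice the glucocorticoid receptor (GR) dimerizes poorly because of a germline point mutation in its gene, *Nr3c1*, and GR+/+ mice were wildtype littermates. All 6 mice were anesthetized and ventilated, bled to a mean arterial pressure of 35 mmHg for 1 h of hemorrhagic shock (HS), re-transfused and then resuscitated for 4 h with fluids and norepinephrine. No lung without HS was among these libraries. The comparison therefore asks how the genotypes differed after HS, and the effect of HS itself was not measured.

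Superoxide dismutases convert superoxide to hydrogen peroxide, and catalase and the glutathione peroxidases remove the peroxide. Glutathione peroxidases use glutathione, whose synthesis is limited by glutamate-cysteine ligase, and thioredoxin reductase keeps the parallel thioredoxin system reduced. Heme oxygenase breaks heme down to biliverdin, carbon monoxide and iron. It is strongly inducible by free heme and oxidative stress, and in the lung alveolar macrophages are known for its expression. Several of these genes are classical targets of the transcription factor NRF2, which binds antioxidant response elements (AREs) once it is released from its inhibitor KEAP1. BACH1 represses *Hmox1* at the same elements.

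*Gpx1*, *Gpx3* and *Txnrd1* encode selenoproteins, in which a TGA codon inside the reading frame is read as selenocysteine. This residue sits in the active center. The stretches around the codon are shown because they are what these 3 genes of the 10 have in common. They come from the GENCODE M21 transcripts of GRCm38, all on the plus strand, with up to 18 bases on each side and the TGA codon in capitals. In *Gpx1* the codon is number 47 of 202 (stop codon included) and lies in exon 1 (chr9:108339433-108339471). In *Gpx3* it is number 73 of 227, in exon 2 (chr11:54907238-54907276). In *Txnrd1* it is number 498 of 500, in exon 14 and just before the regular stop codon (chr10:82896019-82896045).
Gpx1: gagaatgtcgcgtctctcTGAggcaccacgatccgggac
Gpx3: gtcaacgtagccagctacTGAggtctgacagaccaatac
Txnrd1: atcctccagtctggctgcTGAggttaa

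Promoter windows from 250 bases before to 50 bases after the transcription start were at hand for 7 of the 10 genes (9 windows, RefSeq, GRCm38.p6). *Hmox1*, *Gclc* and *Sod3* were not searched. The 9 windows were searched on both strands for the ARE core TGACNNNGC and for the core of the glucocorticoid response element. The latter is GNACA and TGTNC with 3 bases between them. The ARE core occurred in 1 window each of *Gclm*, *Txnrd1* and *Sod1*, in every case on the strand opposite to the gene. Over all 32851 windows, 12.4% held it. The glucocorticoid response element core was found in none of the 9 windows and in 0.475% of all windows. The ARE matches are shown because NRF2 is known to act through this element. They are descriptions of sequence and not sites shown to be bound here. The capitals mark the match, with 10 bases on each side, on the plus strand. The *Gclm* match starts 134 bases before the start site (chr3:122245413-122245441), the *Txnrd1* match 92 bases (chr10:82859104-82859132) and the *Sod1* match 56 bases (chr16:90220696-90220724).
Gclm: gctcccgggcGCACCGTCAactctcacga
Txnrd1: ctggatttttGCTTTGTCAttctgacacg
Sod1: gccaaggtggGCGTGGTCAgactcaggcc

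The libraries held 15687734 to 32082940 counts. Of all genes, 16568 had enough reads to be tested (edgeR's filterByExpr), all 10 described here among them, with 1538 to 36327 counts per gene and library. Counting error was at most 2.55%. Levels are given as CPM, counts scaled to a common library total and by TMM factors. A DEG needed 2 things, a *p*-value below 0.05 after adjustment and a log2 fold change above 0.5 or below -0.5. Lung markers were abundant in all libraries, with 19558 to 28219 summed CPM for 9 alveolar type 2 genes. *Nr3c1* itself had a log2 fold change of -0.05 (SE 0.17), and a point mutation is not seen in counts per gene. The GR targets that the study chose on these lungs, *Tsc22d3*, *Fkbp5*, *Klf9* and *Ccl20*, had log2 fold changes of -0.99, -1.25, -1.13 and -1.46 and did not overlap between genotypes, although none was a DEG (edgeR, adjusted *p* 0.103 to 0.185). Summed markers of NK and B cells did not overlap between genotypes, although 5 of the 10 genes of each list overlapped (14.8% of all genes tested did not overlap). The summed CPM of 10 NK cell genes was 12.3 to 29.9 in GR+/+ and 34.5 to 56.2 in GRdim/dim lungs, and that of 10 B cell genes 67.2 to 153 and 170 to 497. Their part in the results for the 10 genes was not tested. In whole lung, fewer cells of a type and less RNA per cell cannot be told apart.

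The mice were of both sexes, and by the study's methods 2 of the GR+/+ mice and 1 of the GRdim/dim mice were female, without a link to the libraries. Sex-linked expression was therefore summarized as an index, the log2 CPM of *Xist* minus the mean log2 CPM of the Y-linked *Ddx3y*, *Eif2s3y*, *Kdm5d* and *Uty*. It was -5.53, 11.6 and 12.2 in GR+/+ replicates 1, 2 and 3 and -6.95, 11.6 and -6.81 in GRdim/dim replicates 1, 2 and 3. The index was thus unevenly spread over the genotypes, and results are given with and without it as a covariate.

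None of the 10 genes was a DEG between GRdim/dim and GR+/+ lungs after HS. Over all genes tested, edgeR called 28, which is 0.169% (0.0724% higher and 0.0966% lower). With DESeq2 none of the 10 was a DEG either, against 274 DEGs or 1.7% of all genes. Unadjusted *p*-values under 0.05 were found for *Gpx1*, which was higher, and *Gpx3*, which was lower in GRdim/dim lungs. Over all genes, 4.91% had such a value with a higher and 4.68% with a lower level, 9.6% in all. DESeq2 gave such a value for the same pair and for 5.91% of all genes. *Gpx1* and *Gpx3* were also the genes without overlap between genotypes, 1 in each direction, against 7.77% of all genes higher and 7.05% lower without overlap. In a set of 10 genes, 1 gene per direction is the smallest count above 0, and nothing is read from it. The median log2 fold change of the 10 genes was 0.02, and that of all genes 0.01. The adjusted *p*-values of the 10 genes ran from 0.471 to 0.998 (edgeR).

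**Figure D1:**
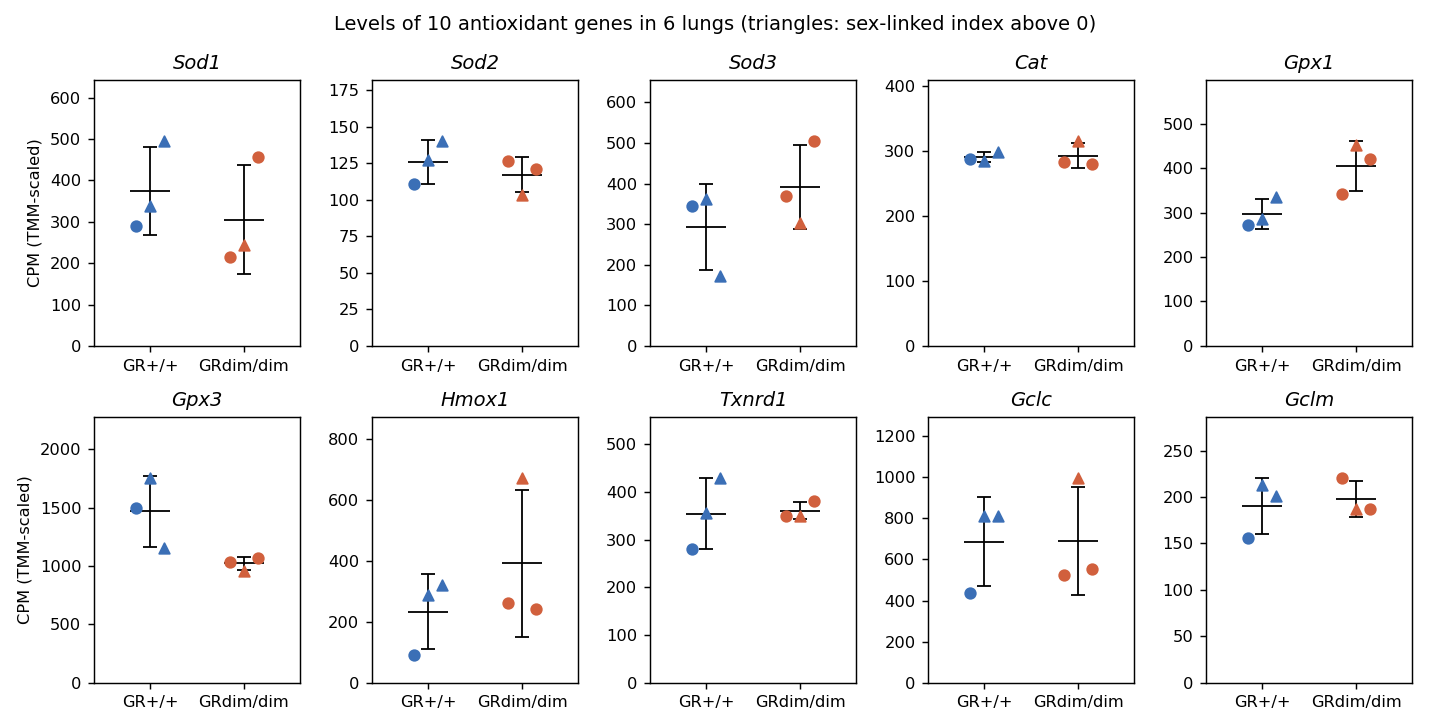
Level of each of the 10 genes in each lung, in CPM (TMM-scaled) on axes that start at 0, with the mean and SD (n = 3) per genotype. Triangles are libraries with a sex-linked index above 0 and circles those below 0. *Gpx1* and *Gpx3* do not overlap between genotypes, as is the case for 14.8% of all genes, and *Hmox1* spreads most, from 91.9 to 672 CPM.

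*Sod1* encodes the cytosolic copper and zinc superoxide dismutase (ENSMUSG00000022982, chr16:90220754-90226329). Its levels were 290, 339 and 495 CPM in GR+/+ replicates 1, 2 and 3 and 214, 245 and 457 CPM in GRdim/dim replicates 1, 2 and 3. Replicate 3 was the highest lung within each genotype, and the groups overlapped widely. The log2 fold change was -0.30 (SE 0.30, adjusted *p* = 0.832, edgeR). It was -0.71 without GRdim/dim replicate 3 and -0.05 without GR+/+ replicate 3. These counts are uncertain, since 35.4% of the windows of 31 bases in its transcript also occur in 2 other genes, most of them in *Gm8566*, and reads could be split between them.

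*Sod2* encodes the manganese enzyme of mitochondria (ENSMUSG00000006818, chr17:13006846-13040063). It was measured at 111, 127 and 140 CPM in GR+/+ and 127, 104 and 121 CPM in GRdim/dim lungs. This gave a log2 fold change of -0.11 (SE 0.17), with a 95% interval from -0.47 to 0.26. *Sod2* was thus among the steadier genes of the 10, with a ratio of 1.35 between the highest and the lowest lung.

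*Sod3* encodes the extracellular dismutase, which is abundant in lung and vessel walls (ENSMUSG00000072941, chr5:52363791-52371418). Its levels were 344, 363 and 172 CPM in GR+/+ and 368, 302 and 504 CPM in GRdim/dim lungs. GR+/+ replicate 3 stood below all other lungs, and GRdim/dim replicate 3 above them. The log2 fold change of 0.42 (SE 0.29, adjusted *p* = 0.724, edgeR) became 0.15 without GR+/+ replicate 3. The same lung had the lowest sum of smooth muscle markers, with 256 CPM over 7 genes against 486 to 652 CPM in the other libraries. It was also lowest of all lungs in the sums of endothelial (2917 CPM), fibroblast (1121 CPM) and pulmonary vein cardiomyocyte (158 CPM) markers. In the sums of alveolar type 1 (6887 CPM), club (35268 CPM) and ciliated cell (843 CPM) markers it was highest. The part of any of these cells in the *Sod3* level was not tested. The number of *Sod1* reads per *Sod3* read was 0.844, 0.935 and 2.88 in GR+/+ and 0.582, 0.809 and 0.906 in GRdim/dim lungs (two-sided exact permutation test, *p* = 0.2, where 0.1 is the smallest value that 3 against 3 allow).

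*Cat* encodes catalase, which splits hydrogen peroxide in peroxisomes (ENSMUSG00000027187, chr2:103453849-103485160, minus strand). It was the steadiest of the 10 genes, with 288, 285 and 299 CPM in GR+/+ and 283, 315 and 280 CPM in GRdim/dim lungs. The within-genotype SD of its log2 CPM was 0.07, lower than that of all but 1.2% of the genes tested. Between genotypes its log2 fold change was 0.01 (SE 0.16), with a 95% interval from -0.35 to 0.37, or from 0.786-fold to 1.29-fold.

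*Gpx1*, the cytosolic glutathione peroxidase gene (ENSMUSG00000063856, chr9:108338903-108340343), was measured at 272, 286 and 336 CPM in GR+/+ and 343, 452 and 420 CPM in GRdim/dim lungs. Every GRdim/dim lung lay above every GR+/+ lung, although GR+/+ replicate 3 and GRdim/dim replicate 1 differed by little. The log2 fold change was 0.44 (SE 0.19, 95% interval 0.03 to 0.86, unadjusted *p* = 0.0386 and adjusted *p* = 0.488, edgeR). That is a fold of 1.36, with no call after adjustment over all genes.

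*Gpx3* encodes the secreted glutathione peroxidase (ENSMUSG00000018339, chr11:54902453-54910377). Its levels were 1498, 1753 and 1154 CPM in GR+/+ and 1036, 961 and 1072 CPM in GRdim/dim lungs. The GRdim/dim lungs lay close together and below all GR+/+ lungs, of which replicate 3 came nearest. The log2 fold change was -0.52 (SE 0.21, 95% interval -0.99 to -0.05, unadjusted *p* = 0.0327 and adjusted *p* = 0.471, edgeR). The fold was 0.697, and it too was not called after adjustment. With DESeq2 the adjusted *p*-values of *Gpx3* and *Gpx1* were 0.277 and 0.403.

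The opposite directions of both peroxidase genes were followed as a ratio within each library, which does not depend on the scaling between libraries. For each *Gpx3* read, 0.182, 0.163 and 0.291 *Gpx1* reads were counted in GR+/+ lungs and 0.331, 0.470 and 0.391 in GRdim/dim lungs. The means were 0.212 ± 0.0694 and 0.397 ± 0.0698 (SD, n = 3 each). This ratio was formed after the levels of both genes had been seen. Since neither gene overlapped and their directions were opposite, the ratio had to separate the genotypes, and it is given as a description without a test.

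**Figure D2:**
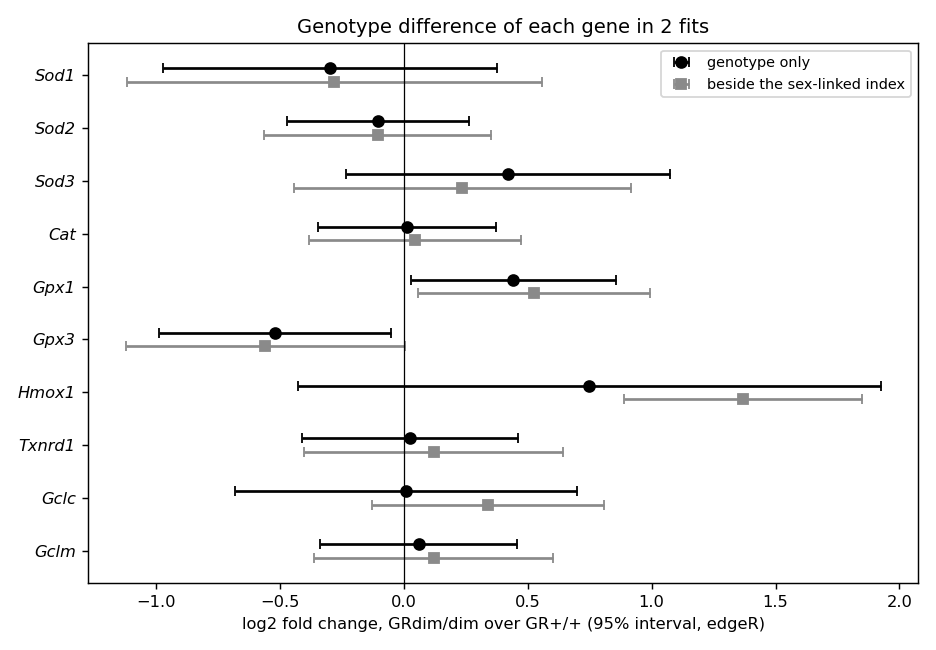
log2 fold change of GRdim/dim over GR+/+ lungs for each of the 10 genes from edgeR, with 95% intervals, for genotype alone (black) and beside the sex-linked index (gray). For genotype alone, the intervals of *Gpx1* (0.03 to 0.86) and *Gpx3* (-0.99 to -0.05) leave out 0 before adjustment. With the index the estimate of *Hmox1* is 1.37.

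*Hmox1* encodes the inducible heme oxygenase (ENSMUSG00000005413, chr8:75093621-75100589). It varied most of the 10 genes, with 91.9, 289 and 320 CPM in GR+/+ and 264, 672 and 243 CPM in GRdim/dim lungs. The highest lung, GRdim/dim replicate 2, held 7.31 times the level of the lowest, GR+/+ replicate 1. The other libraries lay between 243 and 320 CPM, with GR+/+ and GRdim/dim lungs mixed. Its log2 fold change was 0.75 (SE 0.52), with a 95% interval from -0.43 to 1.92 and an adjusted *p* of 0.723 (edgeR). Without GRdim/dim replicate 2 it was 0.12, and without GR+/+ replicate 3 it was 1.04. The within-genotype SD of log2 CPM was 0.91, above that of 96.6% of the genes tested, where the median gene had 0.30.

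Cells and RNA that bear on heme oxygenase were measured in the same libraries. The 10 alveolar macrophage markers summed to 600 to 692 CPM in GR+/+ and 556 to 649 CPM in GRdim/dim lungs. Single markers differed in direction, 7 lower and 3 higher in GRdim/dim lungs, with log2 fold changes of -0.88 for *Chil3* and 0.72 for *Car4*. Both genes made up much of the sum, and in whole lung their RNA cannot be assigned to macrophages alone. *Chil3* was at 244 to 264 CPM in GR+/+ and 95.6 to 161 CPM in GRdim/dim lungs, and *Car4* at 151 to 250 and 225 to 360 CPM. The similar sums therefore do not show that macrophage markers were unchanged. The part of macrophages in the *Hmox1* level was not tested. The 9 erythroid genes, mostly hemoglobin chains, summed to 2183, 1147 and 4250 CPM in GR+/+ and 1778, 4483 and 3457 CPM in GRdim/dim lungs. GRdim/dim replicate 2 was highest in both *Hmox1* and erythroid RNA, while GR+/+ replicate 1 was lowest in *Hmox1* but not in erythroid RNA. The part of retained or re-transfused blood in the *Hmox1* level was not tested.

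The *Hmox1* levels followed the sex-linked index within each genotype. In GR+/+ lungs, replicate 1 with an index below 0 had 91.9 CPM, and replicates 2 and 3 with an index above 0 had 289 and 320 CPM. In GRdim/dim lungs, replicates 1 and 3 with an index below 0 had 264 and 243 CPM, and replicate 2 with an index above 0 had 672 CPM. Among libraries with an index above 0, the GRdim/dim lung held 2.10 to 2.32 times the *Hmox1* level of the 2 GR+/+ lungs. Among those below 0, the 2 GRdim/dim lungs held 2.64 to 2.87 times that of the GR+/+ lung.

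With the index as a covariate, the genotype difference of *Hmox1* was a log2 fold change of 1.37 (SE 0.21, 95% interval 0.89 to 1.85), a fold of 2.59. Its adjusted *p* was 0.0630 with edgeR, just outside the threshold, and its unadjusted *p* ranked 24 of 16568 genes against 4172 without the index. In that fit, 20 genes or 0.121% were DEGs. DESeq2 with the same covariate, an alternative added after the data had been seen, called *Hmox1* with an adjusted *p* of 5.50e-07, where 1.12% of genes were DEGs. This was the only setting in which any of the 10 genes was called. The index itself had a log2 difference of 1.67 (SE 0.22) for *Hmox1* from its lowest to its highest value, with an adjusted *p* of 0.0558. This fit places 3 coefficients on 6 libraries, and 2 of the 4 combinations of genotype and sign of the index hold 1 lung.

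**Figure D3:**
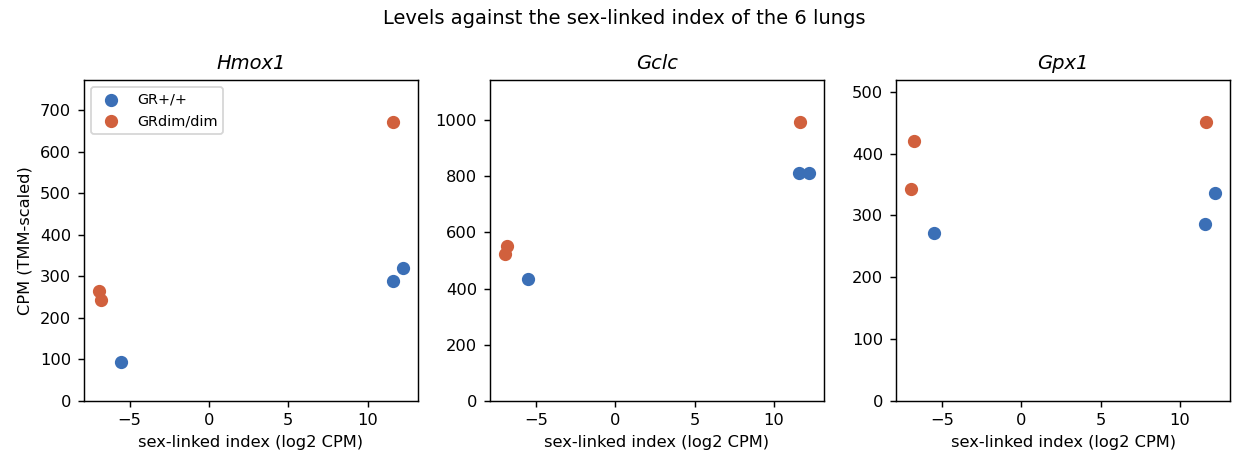
CPM (TMM-scaled) of *Hmox1*, *Gclc* and *Gpx1* against the sex-linked index (log2 CPM) of each lung, with GR+/+ in blue and GRdim/dim in red. *Hmox1* and *Gclc* are higher in the 3 libraries on the right within each genotype. On each side the GRdim/dim lungs lie above the GR+/+ lungs in all panels, which follows from the choice of genes. Of the genes named at the outset, only these 3 were higher in GRdim/dim lungs on both sides. *Gpx3* was lower on both sides, and *Sod2*, *Cat*, *Txnrd1* and *Gclm* changed direction. The genotypes overlapped on the left for *Sod1* and on the right for *Sod3*.

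*Gclc* encodes the catalytic subunit of glutamate-cysteine ligase (ENSMUSG00000032350, chr9:77754535-77794485). Its levels were 436, 811 and 814 CPM in GR+/+ and 523, 995 and 553 CPM in GRdim/dim lungs. The order of the lungs was close to that of *Hmox1*, with GRdim/dim replicate 2 highest and GR+/+ replicate 1 lowest in both. The log2 fold change was 0.01 (SE 0.31), and with the index it was 0.34 (SE 0.21, adjusted *p* = 0.767, edgeR). Within libraries of one sign of the index, the GRdim/dim level was 1.22 to 1.23 times and 1.201 to 1.27 times that of GR+/+. The index term of *Gclc* was 0.95 (SE 0.22, unadjusted *p* = 0.00164, adjusted *p* = 0.590, edgeR), where 4.38% of all genes had an unadjusted *p* under 0.05.

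*Gclm* encodes the modifier subunit, which lowers the enzyme's demand for glutamate (ENSMUSG00000028124, chr3:122245557-122270732). It was measured at 156, 213 and 201 CPM in GR+/+ and 220, 187 and 187 CPM in GRdim/dim lungs, and did not follow *Gclc* in GRdim/dim replicate 2. Its log2 fold change was 0.06 (SE 0.18). Its exons share 296 bases with the antisense gene *Gm17494* and 244 bases with *Gm6061* on the same strand. Whether the counting used strand is not given in the sources used here, so reads of these genes cannot be told apart there. The number of *Gclc* reads per *Gclm* read was 3.55 ± 0.665 in GR+/+ and 3.55 ± 1.56 in GRdim/dim lungs (SD, n = 3 each).

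*Txnrd1* encodes cytosolic thioredoxin reductase (ENSMUSG00000020250, chr10:82833951-82897712). Its levels were 280, 355 and 428 CPM in GR+/+ and 350, 350 and 382 CPM in GRdim/dim lungs. The GRdim/dim lungs lay within the range of the GR+/+ lungs. Its log2 fold change was 0.02 (SE 0.20), with a 95% interval from -0.41 to 0.46. *Gclm*, *Txnrd1* and *Sod1*, the genes with an ARE core in their promoter window printed above, thus had log2 fold changes from -0.30 to 0.06.

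The other genes were recomputed within the sign of the index as well. *Gpx1* was 1.34 to 1.58 times as high in GRdim/dim as in GR+/+ lungs above 0 and 1.26 to 1.54 times below 0. *Gpx3* stood at 0.548 to 0.833 times above 0 and at 0.692 to 0.716 times below 0. With the index as a covariate, *Gpx1* had a log2 fold change of 0.52 (adjusted *p* = 0.561) and *Gpx3* of -0.56 (adjusted *p* = 0.627, both edgeR). The remaining 6 genes did not keep to 1 direction within both signs. *Sod2*, *Cat*, *Txnrd1* and *Gclm* lay in opposite directions on the 2 sides, each by 1.41 times or less. The share of all genes tested that keep to 1 direction within both signs was not counted. Each side held only 1 or 2 lungs per genotype, so nothing is read from the number of genes that did so here.

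How single lungs departed from the mean of their genotype was taken from log2 CPM. *Hmox1* departed most, by -1.15 in GR+/+ replicate 1 and by 0.94 in GRdim/dim replicate 2. *Gclc* followed with -0.60 and 0.59 in the same libraries. *Sod3* was 0.69 below its mean in GR+/+ replicate 3, the library with the most reads, and *Sod1* was 0.44 above in that lung and 0.66 above in GRdim/dim replicate 3. GR+/+ replicate 1 was the lowest GR+/+ lung in 7 of the 10 genes and the highest in none. GR+/+ replicate 3 was the highest in 7. Among the GRdim/dim lungs no library was highest or lowest in more than 5 genes.

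**Figure D4:**
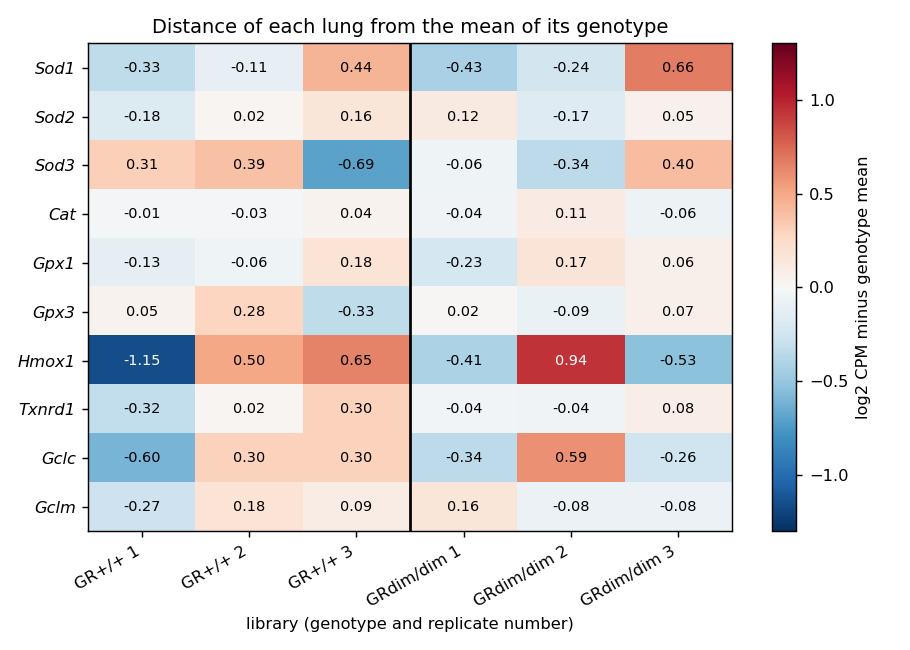
Log2 CPM of each gene in each lung minus the mean of its genotype, as colors with printed values, where red is above and blue below the mean. *Hmox1* and *Gclc* share the lowest value in GR+/+ replicate 1 and the highest in GRdim/dim replicate 2, while *Cat* stays within 0.11 of its mean.

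Likeness of pattern was measured as the root-mean-square difference of standardized log2 CPM over the 6 libraries. Among the 10 genes, *Hmox1* and *Gclc* were most alike with 0.50 SD, followed by *Cat* and *Gclc* with 0.74 SD. Among all genes tested, *Cavin4* (0.17 SD), *Stxbp3* (0.20 SD) and *Gm15932* (0.21 SD) were closest to *Hmox1*. *Ddx17* (0.07 SD), *Pdgfb* (0.13 SD) and *Carmil3* (0.18 SD) were closest to *Gpx3*, the gene with the smallest unadjusted *p* of the 10. With 6 libraries and 16568 genes, values of this size are a description only.

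To compare levels between genes, CPM was divided by gene length in kb as deposited. *Gpx3* was the most abundant of the 10 in both genotypes, with 810 ± 166 CPM per kb in GR+/+ and 564 ± 31.3 CPM per kb in GRdim/dim lungs (SD, n = 3 each). *Gpx1* came next by mean with 207 ± 23.5 and 281 ± 38.8 CPM per kb, and every library of *Gpx3* lay above every library of *Gpx1*. *Gpx1* was not apart from the genes below it. In GR+/+ lungs *Gclc* at 116 to 216 CPM per kb overlapped *Gpx1* at 189 to 233 CPM per kb. *Hmox1* in GRdim/dim replicate 2, at 384 CPM per kb, lay above every library of *Gpx1*. *Gclc* (182 and 183 CPM per kb), *Hmox1* (133 and 224), *Cat* (111 and 112), *Sod1* (94.4 and 76.9) and *Sod3* (78.3 and 105) formed a middle group. In GR+/+ lungs, neighbours in this group overlapped. In GRdim/dim lungs, every library of *Gclc* and *Hmox1* lay above every library of *Cat*, *Sod1* and *Sod3*. *Txnrd1* (39.5 to 60.5 CPM per kb in GR+/+ and 49.3 to 53.9 in GRdim/dim lungs), *Gclm* (means of 30.2 and 31.5) and *Sod2* (12.6 and 11.7) were lowest by mean. Their libraries did not overlap with each other, but *Sod3* in GR+/+ replicate 3, at 45.9 CPM per kb, lay within the range of *Txnrd1*.

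The place of *Sod1* in this order depended on the length. The deposited length of 3970 bases joins all its annotated exons, while its principal transcript has 641 bases. Lengths of principal transcripts were an alternative added after the data had been seen. With them, *Sod1* was at 585 CPM per kb in GR+/+ and 476 CPM per kb in GRdim/dim lungs and stood second of the 10 by mean. *Gpx3* stayed highest by mean with 921 and 642 CPM per kb and *Sod2* lowest with 21.5 and 20.0 CPM per kb. In single lungs *Sod1* and *Gpx3* could change places. *Sod1* lay above *Gpx3* in GR+/+ replicate 3 (772 against 724 CPM per kb) and in GRdim/dim replicate 3 (712 against 673 CPM per kb). By deposited length, *Sod1* made up 32.7% to 67.5% of the summed dismutase level per lung. By principal transcript it made up 73.6% to 91.7%.

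The wider redox system was described with 8 lists that hold 103 genes, of which 98 were tested. None of the 98 was a DEG (edgeR). An unadjusted *p* under 0.05 was found for 13 genes or 13.3%, against 9.6% of all genes. The libraries of 22 genes or 22.4% did not overlap between genotypes, against 14.8% of all genes. The median log2 fold change of the 98 genes was 0.05. Among these genes, *Ncf4*, *Rac2*, *Gpx7*, *Ggt5*, *Me1*, *Bach1*, *Msrb1* and *Gstp1* were higher and *Nox4*, *Hpx*, *Slc31a1* and *Nfe2l1* lower in GRdim/dim lungs. The lists are described below by their genes with the smallest *p* in either direction.

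**Figure D5:**
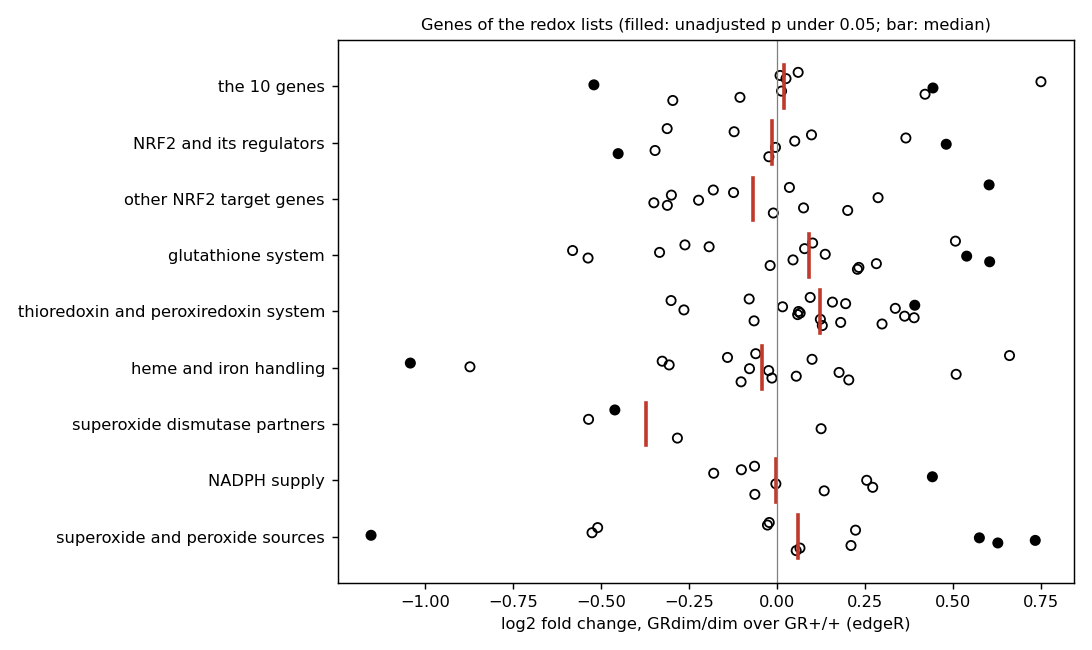
log2 fold change (GRdim/dim over GR+/+, edgeR) of each gene of the 10 and of the 8 redox lists, with filled circles for an unadjusted *p* under 0.05 and red bars for the median of each list. The list medians lie between -0.37, for the 4 dismutase partners, and 0.12, for the thioredoxin and peroxiredoxin system, and *Nox4* is the lowest gene at -1.15.

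Superoxide and peroxide sources held the lowest *p* of these lists. *Nox4*, an NADPH oxidase that makes hydrogen peroxide in mesenchymal and endothelial cells, was at 141, 140 and 106 CPM in GR+/+ and 71.9, 69.2 and 32.7 CPM in GRdim/dim lungs. Its groups were far apart, with a log2 fold change of -1.15 (SE 0.28, unadjusted *p* = 0.00170, adjusted *p* = 0.196, edgeR). DESeq2 called it without and with the sex-linked index (adjusted *p* = 0.00641 and 0.0378), as did edgeR without the filter on low counts (adjusted *p* = 7.78e-06). Over all genes, the 2 DESeq2 fits called 1.7% and 1.12%, and edgeR without the filter called 522 of 31368 genes. *Nox4* was the 1 gene of the redox lists called in each of these settings. The other edgeR settings did not, with adjusted *p*-values from 0.0733 to 0.391.

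Among NRF2 and its regulators, the median log2 fold change was -0.01 over 10 genes. *Bach1*, the repressor of *Hmox1*, was at 138, 111 and 126 CPM in GR+/+ and 169, 195 and 160 CPM in GRdim/dim lungs without overlap (log2 fold change 0.48, SE 0.17, adjusted *p* = 0.397, edgeR). *Nfe2l1*, a relative of NRF2, was at 422, 370 and 479 CPM in GR+/+ and 277, 291 and 361 CPM in GRdim/dim lungs (log2 fold change -0.45, SE 0.19). The 12 other NRF2 targets had a median of -0.07, with *Gstp1*, a glutathione transferase, at 0.60 and *Ephx1*, an epoxide hydrolase, at -0.35.

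The glutathione list of 16 genes had a median log2 fold change of 0.09, with *Gpx7*, a peroxidase of the endoplasmic reticulum, at 0.60 and *Oplah*, which recycles oxoproline to glutamate, at -0.33. *Gpx7* was at 9.08, 8.63 and 8.51 CPM in GR+/+ and 10.5, 12.96 and 16.4 CPM in GRdim/dim lungs. The 19 thioredoxin and peroxiredoxin genes had a median of 0.12, and 15 of them were above 0. For all genes the share above 0 was not counted, and the median was 0.01. Of the 19, 1 had an unadjusted *p* under 0.05 (edgeR), against 9.6% of all genes. Without overlap were 3 higher and 1 lower, against 7.77% and 7.05% of all genes. *Msrb1*, a methionine sulfoxide reductase and selenoprotein, was at 0.39. *Prdx6*, a peroxiredoxin abundant in lung, was at 1847, 2088 and 2287 CPM in GR+/+ and 1633, 1709 and 1835 CPM in GRdim/dim lungs (log2 fold change -0.27, SE 0.20).

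Heme and iron genes had a median log2 fold change of -0.04 over 16 genes. *Hpx*, the heme-binding hemopexin, was at 4.60, 4.80 and 6.42 CPM in GR+/+ and 2.48, 2.33 and 2.91 CPM in GRdim/dim lungs without overlap (log2 fold change -1.04, SE 0.30, adjusted *p* = 0.300, edgeR). *Ftl1*, the ferritin light chain, was at 1009, 1141 and 1149 CPM in GR+/+ and 1151, 1381 and 2159 CPM in GRdim/dim lungs (log2 fold change 0.51, SE 0.25). Its highest lung was GRdim/dim replicate 3, and not replicate 2, which had the highest *Hmox1*. *Ftl1*, *Gstp1* and *Prdx6* have near-identical copies in the mouse genome, and their counts are uncertain for that reason.

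Of the 4 dismutase partners, *Slc31a1*, the copper importer, was at 127, 113 and 132 CPM in GR+/+ and 99.4, 92.0 and 78.7 CPM in GRdim/dim lungs (log2 fold change -0.46, SE 0.16). *Atox1*, a copper chaperone, had a log2 fold change of 0.12. For the supply of NADPH, the median was -0.0041 over 9 genes tested. *Me1*, the cytosolic malic enzyme, was at 105, 112 and 141 CPM in GR+/+ and 162, 154 and 171 CPM in GRdim/dim lungs (log2 fold change 0.44, SE 0.17), and mitochondrial *Me2* had a log2 fold change of -0.18.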

How the data were processed

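Read counts per gene of 6 lung libraries (3 per genotype, 1 mouse each, grouped by the sample labels) were used as the authors deposited them, as raw counts without normalization, with gene lengths in bases. The submitters' processing notes name mm10 and DESeq2. Aligner, counting tool and use of strand are not given in the sources used here. Coordinates of all 10 genes were identical in GENCODE M21 (GRCm38). Libraries held 15687734 to 32082940 counts, and no other per-sample column was left unused. Replicates of 1 genotype differed by more than sampling noise (chi-square per gene 20.7 to 73.5) and were kept as separate samples.

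edgeR 4.0.16 in R 4.3.3 was used (TMM, filterByExpr, robust glmQLFit, glmQLFTest), with Benjamini-Hochberg adjustment over 16568 genes. SE is the log2 fold change divided by the root of the F statistic. A prior count of 2 was used for log2 CPM. Exact permutation tests enumerated 10 splits. DESeq2 1.42.0 with default settings was an alternative. The procedure was tested on simulated data.

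Named were the 10 genes, in each redox list the gene with the smallest *p* in either direction and any DEG, the GR targets chosen by the study, and the 3 genes most like *Hmox1* and the gene with the smallest *p*. Genes of the redox lists with an unadjusted *p* under 0.05 are also listed, chosen after their values were seen. A gene that the rule names is not reported here. The genes and lists were chosen with earlier results of these data known. Alternatives were RLE scaling, no filter, at least 10 counts in every library, DESeq2, a replicate block, the sex-linked covariate, each library left out in turn, and calls without the limit on fold size. DESeq2 with that covariate, the test of the covariate's own term and lengths of principal transcripts were added after seeing the data.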

Additional observations from a re-analysis of the deposited data

How the results depend on the processing

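Of 140 alternative log2 fold changes of the 10 genes (14 alternatives each), 132 kept their direction and call, 7 reversed and 1 passed the threshold. The 132 include 10 values of the alternative without the limit on fold size. It reused the main fit, in which no adjusted *p* of the 10 genes was under 0.05, so these values and calls could not change. All 7 reversed values came from leaving out 1 library, which is what the ranges that follow cover. *Txnrd1* ranged from -0.12 to 0.18, with -0.12 without GR+/+ replicate 1 and -0.02 without GRdim/dim replicate 3. *Gclc* ranged from -0.35 to 0.18, with -0.23 without GR+/+ replicate 1 and -0.35 without GRdim/dim replicate 2. *Gclm* ranged from -0.061 to 0.15, with -0.061 without GR+/+ replicate 1 and -0.02 without GRdim/dim replicate 1. *Cat* ranged from -0.042 (without GRdim/dim replicate 2) to 0.044. *Gpx1* ranged from 0.36 to 0.55 and *Gpx3* from -0.67 to -0.37. *Hmox1* passed with DESeq2 beside the sex-linked covariate (log2 fold change 1.37), the 1 call among the 10 genes in that setting, an alternative chosen after seeing the data. All other alternatives called 0.

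The number of DEGs among all genes was 28, and 522 without a filter on low counts, 274 with DESeq2, 188 with DESeq2 and the sex-linked covariate, and 4 to 22 with 1 library left out (lowest without GR+/+ replicate 2). Of the wider redox genes, 1 (*Nox4*) was a DEG without a filter on low counts, with DESeq2, and with DESeq2 and the sex-linked covariate. None was a DEG in the main fit. To compare same-numbered lungs, the mean of its genotype was first subtracted from the log2 CPM of each gene tested. Correlations of these departures over all genes tested were 0.22, 0.04 and -0.05. By the same departures, GR+/+ replicates 1 and 2 were closest to the same-numbered GRdim/dim lung, and GR+/+ replicate 3 to GRdim/dim replicate 2. With 3 lungs per genotype, this cannot decide whether replicate numbers pair the lungs. A replicate block gave 34 DEGs and 0 of the 10 genes. The causes were not tested.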
